A study of Mus musculus with 24 samples.

Results

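The lasting effect of angiotensin II (Ang II) on mouse aorta was taken as the difference from sham that 2 times share. It was measured in the 16 libraries collected 2 or 4 months after infusion, of 24 in the series, with 8 Ang II libraries set against 8 sham libraries and time held as a block. The 16 were chosen by their labelled time. The 8 libraries of 6 months are not analysed here, since they are of another library kind. All animals were wild-type mice. A subcutaneous osmotic minipump delivered Ang II or vehicle (sham) for 2 weeks, so every value comes from months after the hormone had stopped. Each of the 4 groups (sham at 2 months, Ang II at 2 months, sham at 4 months, Ang II at 4 months) had 4 libraries of RNA from aortic homogenate. The labels give no strain, age or sex, and it is not stated if replicates came from different animals. All p-values here therefore speak of the spread among these libraries alone, which could be technical.

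Ang II is a peptide hormone that narrows arteries, and its infusion is a standard way to make mice hypertensive. The arterial wall answers high pressure with a change of its smooth muscle, its matrix and its resident and recruited macrophages. Macrophages live mainly in the adventitia, where they clear dead cells and debris through scavenger, complement and Fc receptors and digest what they take up in lysosomes. The series concerns Axl, a receptor that recognises dying cells, in this setting.

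Library depth ranged from 19.16 to 35.13 (in 1e6 counts), and mitochondrial genes took 7.72% to 16.3% of the counts. Markers of smooth muscle, endothelium, fibroblasts, adipocytes and macrophages were detected in all 16 libraries. The smooth muscle gene Acta2 ranged from 134 to 3932 counts per 1e6 counts (CPM), the endothelial gene Pecam1 from 160 to 321 CPM, the adipocyte gene Adipoq from 1299 to 2164 CPM and the macrophage gene Csf1r from 28.1 to 96.0 CPM. Airway epithelium markers, which do not belong to the aorta, set some libraries apart. Their summed level was 57.4 to 11134 CPM, and 8 libraries held over 500 CPM: sham replicates 3 and 4 and Ang II replicates 1 and 2 at 2 months, and sham replicate 2 and Ang II replicates 2, 3 and 4 at 4 months. Muscle markers varied widely too. The skeletal muscle sum went from 267 CPM in Ang II replicate 1 of 2 months to 15592 CPM in sham replicate 2 of 4 months. The cardiac muscle sum went from 708 CPM in sham replicate 2 to 8574 CPM in sham replicate 3, both of 2 months. No library was left out on account of these muscle sums, and their part in the results was not tested. In whole tissue, more cells of a type and more RNA per cell cannot be told apart.

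Ang II changed 157 of 17153 genes in the common comparison (0.915%), at an adjusted p under 0.05 in edgeR's quasi-likelihood test. Of these, 87 were higher (0.507%) and 70 were lower (0.408%). The genes that rose included 11 of 25 general macrophage genes, and those that fell included 3 of 22 contractile smooth muscle genes and 5 of 12 red cell and platelet genes. The median log2 fold change was 0.78 among the genes that rose and -0.69 among those that fell, against 0.02 over all genes tested. Only a part of the changes was large, with 31 rises and 23 falls of at least 1 on the log2 scale. Of the 157, 156 were protein coding. The count depended on single libraries: it was 73 without sham replicate 1, 100 without sham replicate 3 and 69 without Ang II replicate 2 of 2 months, and 103 without sham replicate 2 and 101, 77 and 104 without Ang II replicates 2, 3 and 4 of 4 months. Without the 4 libraries of 2 months that held over 500 CPM of airway markers, 35 genes were called, 30 higher and 5 lower. Without all 8 such libraries, which left 2, 2, 3 and 1 in the groups, edgeR called 0 of 18066 genes, with 808 at an unadjusted p under 0.05.

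Promoters of 3 of the macrophage genes that rose are shown because these genes carry the result and macrophage promoters are known for sites of PU.1, the factor that sets macrophage identity. Each stretch is the 250 bases before the start site in RefSeq's GRCm38.p6, read 5′ to 3′ on the gene's strand, and capitals mark the PU.1 core GAGGAA or its reverse complement TTCCTC. The windows are chr19:11336147-11336396 (minus strand) for Ms4a7, chr11:69666171-69666420 (minus strand) for Cd68 and chr17:48346151-48346400 (plus strand) for Trem2.
Ms4a7: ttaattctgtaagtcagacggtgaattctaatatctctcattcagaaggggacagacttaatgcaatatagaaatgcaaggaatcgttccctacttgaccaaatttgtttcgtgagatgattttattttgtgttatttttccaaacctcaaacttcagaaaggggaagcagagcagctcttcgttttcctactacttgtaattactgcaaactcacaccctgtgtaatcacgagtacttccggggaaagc
Cd68: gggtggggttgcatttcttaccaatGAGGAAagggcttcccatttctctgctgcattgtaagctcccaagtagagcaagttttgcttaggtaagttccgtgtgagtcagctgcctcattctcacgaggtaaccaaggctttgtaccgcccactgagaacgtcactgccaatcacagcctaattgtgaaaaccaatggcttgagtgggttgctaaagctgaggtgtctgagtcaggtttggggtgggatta
Trem2: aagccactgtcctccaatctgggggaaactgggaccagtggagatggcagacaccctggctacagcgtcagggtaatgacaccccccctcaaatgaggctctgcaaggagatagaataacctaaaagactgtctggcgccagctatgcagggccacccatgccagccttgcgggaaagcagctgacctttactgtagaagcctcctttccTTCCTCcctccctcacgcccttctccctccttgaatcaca
Cd68 held the core on its own strand from base -225, Trem2 held it on the opposite strand from base -40, and Ms4a7 held none. Of 16 macrophage-list genes that rose and were looked up, 10 had a RefSeq window, and 7 of those 10 held GAGGAA on either strand, beside 23.3% of all 32851 windows of the same length. Among the 7, the start site of the Igf1 window lay 2846 bases and that of C1qc 151 bases from the gene's deposited 5′ end. Each of the 10 genes counted once, while the set of all windows can hold several per gene. The E-box CACGTG was in 0 of the 10 and in 6.02% of all windows. A match of letters is no evidence of binding.

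General macrophage genes rose in the common comparison. Of the 25 genes of a list of general macrophage identity, 11 rose and 0 fell, and their median log2 fold change was 0.79 (0.70 at 2 months and 0.85 at 4 months). The 11 were Cd68, Ms4a7, Mpeg1, Adgre1, C1qa, C1qb, C1qc, Tyrobp, Fcer1g, Lst1 and Ctss. The groups of 9 genes of the list were apart upward at both times, beside 66 of all 17153 genes tested (0.385%). The summed level of the list was 561 to 894 CPM in sham and 995 to 1763 CPM in Ang II libraries at 2 months, and 685 to 1019 CPM in sham and 1199 to 1904 CPM in Ang II libraries at 4 months, so the groups did not overlap at either time. Airway marker sums were 57.4 to 11134 CPM in sham and 114 to 2990 CPM in Ang II libraries at 2 months, and 63 to 1977 CPM and 122 to 7675 CPM at 4 months, and their part in the macrophage result was not tested beyond the counts without those libraries. Leaving out each library in turn gave 10 to 12 called members. The count was 8 without the 4 airway-rich libraries of 2 months and 0 without all 8.

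Cd68 (mm10 chr11:69664213-69666153), a glycoprotein of lysosomes and endosomes used to stain macrophages, was at 9.12, 11.5, 8.08 and 18.6 CPM in sham and at 37.4, 39.0, 30.3 and 27.2 CPM in Ang II libraries at 2 months. At 4 months it was at 9.46, 9.10, 11.5 and 12.2 CPM in sham and at 29.2, 37.5, 39.3 and 36.4 CPM in Ang II libraries. Every Ang II library stood above every sham library of both times. The common log2 fold change was 1.63 ± 0.155 (SE, 3.09-fold, adjusted p = 7.5e-05 in edgeR), with 1.5 at 2 months and 1.75 at 4 months.

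Wfdc17 (mm10 chr11:83703991-83706268), a small secreted protein of activated macrophages, had the smallest p of all genes. It was at 2.50, 3.67, 3.58 and 4.09 CPM in sham and at 13.6, 11.3, 11.8 and 12.3 CPM in Ang II libraries at 2 months. The 4-month values were 3.20, 3.15, 2.34 and 4.34 CPM in sham and 13.1, 16.2, 18.6 and 12.0 CPM in Ang II libraries. The lowest Ang II library thus held 11.3 CPM and the highest sham library 4.34 CPM. The common log2 fold change was 2.01 ± 0.148 (SE, 4.02-fold, adjusted p = 7.9e-06 in edgeR).

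Ms4a7 (mm10 chr19:11321039-11336146), a 4-span membrane protein of mature macrophages, was at 2.04, 1.77, 2.33 and 3.40 CPM in sham and at 7.65, 9.83, 6.51 and 6.07 CPM in Ang II libraries at 2 months. Its levels at 4 months were 2.6, 2.17, 1.48 and 2.65 CPM in sham and 10.3, 8.38, 8.63 and 9.38 CPM in Ang II libraries. The groups were apart at both times, with a common log2 fold change of 1.85 ± 0.169 (SE, adjusted p = 7.5e-05 in edgeR). Adgre1, which encodes the F4/80 antigen, was at 11.5, 9.82, 11.4 and 14.6 CPM in sham and at 23.5, 27.8, 21.6 and 20.5 CPM in Ang II libraries at 2 months. Its 4-month values were 12.7, 10.9, 7.39 and 15.1 CPM in sham and 27.0, 28.1, 23.2 and 19.8 CPM in Ang II libraries. No Ang II library of Adgre1 reached down to the highest sham library, and the common log2 fold change was 1.03 ± 0.134 (SE, adjusted p = 0.0019 in edgeR).

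Mpeg1, the pore-forming perforin-2 of macrophages, was at 18.8, 35.6, 21.8 and 16.1 CPM in sham and at 48.2, 85.2, 51.7 and 48.4 CPM in Ang II libraries at 2 months. At 4 months it was at 41.4, 20.1, 28.2 and 40.8 CPM in sham and at 82.0, 79.3, 96.3 and 85.2 CPM in Ang II libraries. The groups were apart at each time, and the common log2 fold change was 1.37 ± 0.186 (SE, adjusted p = 0.0026 in edgeR).

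**Figure D1:**
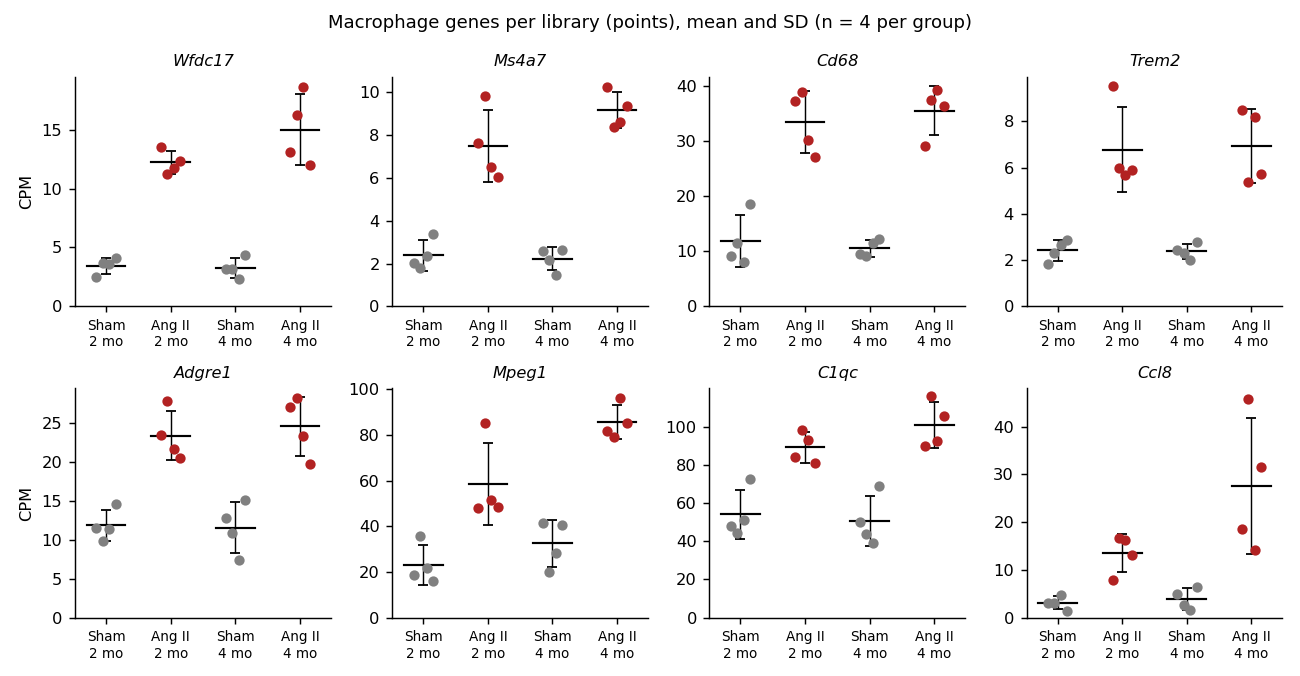
TMM-normalised CPM (linear axis from 0) of 8 macrophage genes by group. Points are the 4 libraries of a group, bars the mean and lines the SD. In every panel all Ang II points lie above all sham points of the same time, for example 27.2 to 39.3 CPM against 8.08 to 18.6 CPM for Cd68.

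Receptors that signal through tyrosine motifs and their adaptors formed a list that shares members with the macrophage lists. Of its 23 tested members, 7 rose and 0 fell (median log2 fold change 0.76). Tyrobp and Fcer1g were also called in the list of general macrophage identity, and Trem2 in that of lipid-handling macrophages. Trem2 (mm10 chr17:48346401-48354147), a receptor for lipids and dying cells, was at 1.82, 2.32, 2.67 and 2.86 CPM in sham and at 9.52, 5.97, 5.68 and 5.89 CPM in Ang II libraries at 2 months. The 4-month values were 2.46, 2.29, 1.99 and 2.77 CPM in sham and 8.47, 5.40, 8.17 and 5.71 CPM in Ang II libraries. Ang II replicate 1 of 2 months was the highest, and the other Ang II libraries still lay above all sham libraries (common log2 fold change 1.51 ± 0.155 SE, adjusted p = 0.00016 in edgeR). Its adaptor Tyrobp rose by 0.86 ± 0.149 (SE) and Fcer1g, the common chain of Fc receptors, by 0.69 ± 0.0983 (SE) on the log2 scale. Cd300a, an inhibitory lipid receptor, rose by 1.47 ± 0.157, Sirpa, the receptor for CD47, by 0.51 ± 0.0899, and the IgG receptor Fcgr3 by 0.64 ± 0.131 (SE, log2). Pirb also rose (log2 0.80), but it has near-identical relatives between which reads can be split. Syk, Btk and Plcg2, which carry the signal onward, had log2 values of 0.76, 0.90 and 0.90 and did not pass.

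Of 20 complement genes 6 rose and 0 fell (median log2 fold change 0.49). Of the 6, C1qa, C1qb and C1qc were also counted in the general macrophage list. C1qc, 1 of the 3 chains of C1q, which binds antibody and dying cells, was at 48.1, 44.1, 51.3 and 72.7 CPM in sham and at 84.0, 98.4, 93.2 and 81.0 CPM in Ang II libraries at 2 months. Its levels at 4 months were 50.2, 43.7, 39.2 and 68.7 CPM in sham and 90.0, 116, 92.2 and 105 CPM in Ang II libraries. Sham replicate 4 was the highest sham library at each time and stayed below every Ang II library (common log2 fold change 0.86 ± 0.126 SE, adjusted p = 0.0041 in edgeR). The genes of the 3 chains lie side by side in mm10, C1qb at chr4:136880129-136886187, C1qc at chr4:136889804-136893065 and C1qa at chr4:136895917-136898803. The partner chains C1qa and C1qb rose by 0.74 ± 0.123 and 0.78 ± 0.129, and C2, a protease of the classical pathway, by 0.53 ± 0.0952 (SE, log2). C5ar1, the receptor for C5a, and properdin (Cfp) rose by 0.76 and 0.79, while C3, the central component, had a log2 value of 0.17 and did not pass. Cfp was no longer called without sham replicates 1 or 3 or Ang II replicate 2 of 2 months, or without sham replicate 2 or Ang II replicates 2 or 3 of 4 months, with adjusted p up to 0.068 in edgeR.

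Of 15 markers of resident vascular macrophages 4 rose and 0 fell, with a median log2 fold change of 0.48. Ccl8 (mm10 chr11:82115185-82116799), a chemokine that draws monocytes and other leukocytes, had the largest rise of the named genes. It was at 3.14, 3.16, 4.79 and 1.38 CPM in sham and at 7.98, 16.6, 16.3 and 13.2 CPM in Ang II libraries at 2 months, and at 4.91, 2.63, 1.58 and 6.51 CPM in sham and 18.5, 45.8, 14.2 and 31.5 CPM in Ang II libraries at 4 months. The Ang II libraries of 4 months spread over more than those of 2 months, yet no group overlapped its sham, and the common log2 fold change was 2.46 ± 0.344 (SE, 5.50-fold, adjusted p = 0.0029 in edgeR). Clec10a, a lectin for galactose sugars, rose by 0.98 ± 0.163 and the transcription factor Maf by 0.47 ± 0.0839 (SE, log2). Igf1, a growth factor, rose by 0.60 ± 0.122 (SE, log2), but it was called in only 7 of the 16 comparisons that left out 1 library. Lyve1 and Cd163, which mark perivascular macrophages, had log2 values of -0.19 and 0.10, and Mrc1 and Folr2 had 0.57 and 0.58, none of them called.

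Trem2 was the 1 of 20 genes of lipid-handling macrophages that rose. At an unadjusted p under 0.05, 10 of the 20 were higher and 0 lower, beside 1234 higher and 1348 lower of the 17153 genes tested. The list's median log2 fold change was 0.16, and Gpnmb, Lgals3 and Spp1 had values of 0.81, 0.76 and 0.59 without passing. Lysosomal genes gave 4 rises of 32 (14 higher and 0 lower at an unadjusted p under 0.05, median log2 fold change 0.11). Beside Cd68 these were Hexa, a subunit of β-hexosaminidase, at 0.29 ± 0.0469, progranulin (Grn) at 0.29 ± 0.0588 and Ctss, the protease cathepsin S, at 1.07 ± 0.220 (SE, log2). Of these, Grn and Ctss kept their call in 8 and 6 of the 16 comparisons that left out 1 library. Cd68 and Ctss were also counted in the general macrophage list. The general lysosomal genes Lamp1, Ctsd and Psap had log2 values of -0.01, -0.13 and 0.05 and did not pass. Ctss was also the only 1 of 12 genes of the MHC class II list to pass (median log2 fold change 0.76). Among chemokines and their receptors Ccl8 was the 1 of 21 tested that rose (11 higher at an unadjusted p under 0.05), and the monocyte attractant Ccl2 had a log2 value of 0.70. Of 10 monocyte genes 0 passed in edgeR (4 higher at an unadjusted p under 0.05), Ccr2 among them at 0.21.

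Other genes that rose were chosen by size of change. Hpgds, the prostaglandin D synthase of blood cells, rose by 1.61 ± 0.153, and Clec4n, a lectin for fungal sugars, by 1.49 ± 0.239 (SE, log2). Gdf15, a hormone released by stressed cells, was at 0.679, 0.717, 0.667 and 0.641 CPM in sham and at 3.38, 2.85, 1.51 and 1.96 CPM in Ang II libraries at 2 months. At 4 months it was at 0.881, 0.229, 1.07 and 0.482 CPM in sham and at 1.6, 1.69, 3.18 and 2.68 CPM in Ang II libraries. All 8 Ang II libraries were above all 8 sham libraries, with a common log2 fold change of 1.81 ± 0.278 (SE, adjusted p = 0.0054 in edgeR). Cd5l, a secreted protein of tissue macrophages, rose by 1.82 ± 0.380 (SE, log2), but its groups overlapped at 2 months and it was called in 6 of the 16 comparisons that left out 1 library. Serpina3b had a log2 value of 2.24 ± 0.453 (SE), and its cluster holds close copies between which the counting can split reads. It was called in 11 of those 16 comparisons.

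Matrix proteases gave 3 rises of 20 listed genes (median log2 fold change 0.24). Mmp14, a membrane-bound collagenase that also activates Mmp2, was at 37.5, 31.9, 38.7 and 47.1 CPM in sham and at 64.5, 55.9, 45.9 and 55.5 CPM in Ang II libraries at 2 months. The 4-month values were 24.7, 25.1, 25.7 and 32.9 CPM in sham and 40.1, 43.3, 43.2 and 44.7 CPM in Ang II libraries. Sham replicate 4 of 2 months lay above Ang II replicate 3, the only overlap within a time, and the common log2 fold change was 0.59 ± 0.0894 (SE, adjusted p = 0.0053 in edgeR). Adamts4, which cleaves aggrecan and versican, rose by 1.54 ± 0.334 (SE, log2), and the third was Ctss. Mmp2 and Mmp12 had log2 values of 0.28 and 1.31 and did not pass.

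Of the 87 rises, 38 had the larger value at 2 months and 49 at 4 months. Atf3, a transcription factor of the stress response, had log2 values of 2.33 at 2 months and 0.88 at 4 months, Slc25a25, a mitochondrial ATP carrier, of 2.61 and 0.91, and Adamts4 of 2.23 and 0.81. The unadjusted p of the difference between times was 0.030, 0.015 and 0.022, and the adjusted p was 0.42, 0.37 and 0.40 in edgeR. Their common calls were weak, kept in 3, 5 and 3 of the 16 comparisons that left out 1 library. Atf3 was the 1 of 19 tested immediate early genes to pass (14 higher and 0 lower at an unadjusted p under 0.05). Of all 17153 genes tested, 1234 were higher and 1348 lower at that p. The list had medians of 1.28 at 2 months and 0.37 at 4 months, and Egr3 and Nr4a1 reached 3.84 and 3.09 at 2 months with 1.62 and 0.15 at 4 months.

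**Figure D2:**
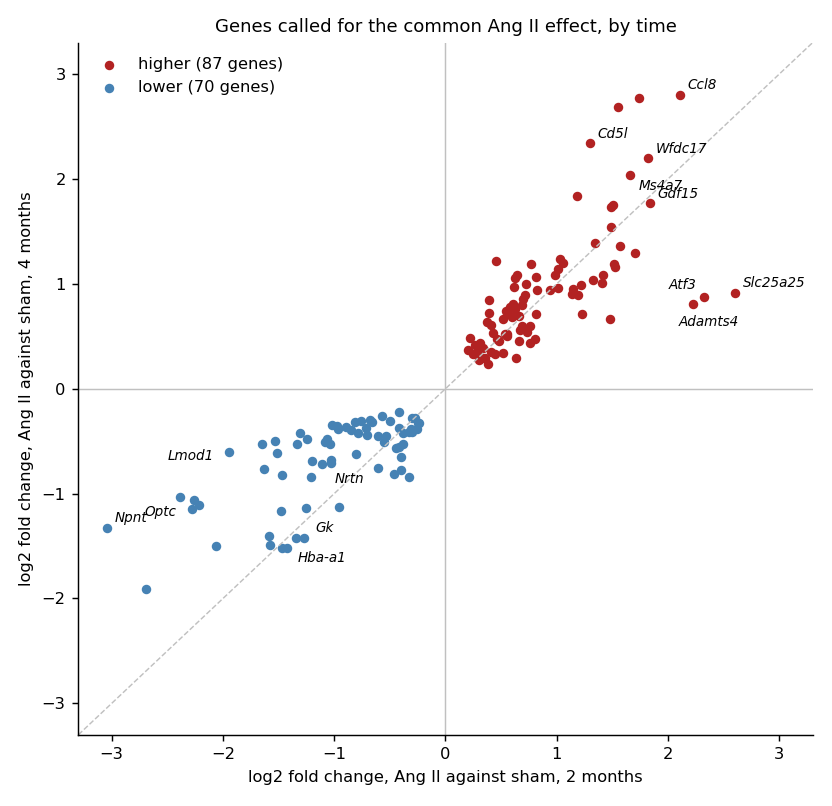
Log2 fold change of Ang II against sham at 2 months (horizontal) and at 4 months (vertical) for the 157 genes called in the common comparison. Red points rose (87), blue points fell (70), and the dashed line marks equal change. Red points lie around the line, while most blue points lie above it, 49 of 70 having the larger change at 2 months.

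All 157 genes had the same direction at both times, a property that the common comparison favours and that is therefore a description. The groups did not overlap at either time for 52 of the 87 genes that rose, where 66 of all genes tested (0.385%) were apart upward, and for 19 of the 70 that fell, where 26 of all genes (0.152%) were apart downward. Calling genes on the same libraries favours such separation, and the 66 and 26 include the called genes, so these counts are a description too. Within the times, 323 genes were called at 2 months (1.88%) and 11 at 4 months (0.0641%). The 4-month count was 184 without sham replicate 4 of 4 months, and 102 without Ang II replicate 2, 64 without sham replicate 4 and 20 without sham replicate 2 of 2 months. It was 5 to 7 without sham replicate 3 or Ang II replicates 3 or 4 of 2 months, and without sham replicates 1, 2 or 3 or Ang II replicates 1 or 3 of 4 months. The 2-month count was 107 without sham replicate 1, 197 without sham replicate 4, and 123, 121 and 155 without Ang II replicates 2, 3 and 4 of 2 months. No gene passed for a difference between the times (0%) in edgeR, with 1813 genes at an unadjusted p under 0.05 and a smallest adjusted p of 0.053. DESeq2 called 179 and limma's voom 467 such genes, and edgeR called 128 without sham replicate 4 of 4 months. The genes that rose had medians of 0.72 at 2 months and 0.81 at 4 months, and those that fell had medians of -0.96 and -0.53 (log2).

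A comparison that shares no library between times was made by fitting the 8 libraries of each time alone. At 2 months 61 genes rose (0.371%) and 236 fell (1.44%), and at 4 months 23 rose (0.143%) and 91 fell (0.564%). Of the 61 rises of 2 months, 47 had the same direction at 4 months, where 57% of all genes lay above 0, and 19 of those had an unadjusted p under 0.05, beside 6.61% of all genes. Of 22 rises of 4 months that were tested at 2 months, 20 had the same direction, beside 51.7% of all genes, and 18 of those an unadjusted p under 0.05, beside 4.18% of all genes. Of 227 tested falls of 2 months, 166 had the same direction at 4 months, where 43% of all genes lay below 0, and 17 of those an unadjusted p under 0.05, beside 8.9% of all genes. Of 90 tested falls of 4 months, 61 had the same direction at 2 months, beside 48.3% of all genes, and 5 of those an unadjusted p under 0.05, beside 6.6% of all genes. By direction, the shares of both rises and falls were thus above those of all genes. With an unadjusted p under 0.05 as well, the share of rises was above that of all genes and the share of falls near or below it. None of these shares was tested.

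Of 22 contractile smooth muscle genes 3 fell and 0 rose, while 21 had a value below 0 and 16 were lower at an unadjusted p under 0.05. Over all 17153 genes tested, 7833 lay below 0 and 1348 were lower at that p. The list had a median log2 fold change of -0.97, of -1.56 at 2 months and of -0.71 at 4 months, and the difference between times was not tested for the list. The 3 were Lmod1, Smtn and Synpo2. The summed level of the list was 7914 to 12515 CPM in sham and 2909 to 4471 CPM in Ang II libraries at 2 months. At 4 months it was 3043, 5038, 2316 and 5956 CPM in sham and 2598, 2398, 2417 and 3038 CPM in Ang II libraries, so that the groups overlapped and all sham libraries lay below those of 2 months. The number called depended on single libraries. It was 0 without sham replicate 1 or Ang II replicates 1, 2 or 4 of 2 months, or without sham replicate 4 or Ang II replicate 3 of 4 months. It was 1 without sham replicate 3 or Ang II replicate 3 of 2 months or Ang II replicate 2 of 4 months, and 7, 8 and 6 without sham replicates 1 and 3 and Ang II replicate 1 of 4 months.

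Lmod1, which starts actin filaments in smooth muscle, was at 244, 215, 143 and 254 CPM in sham and at 70.3, 41.2, 44.1 and 66.4 CPM in Ang II libraries at 2 months. Its levels at 4 months were 42.0, 57.8, 49.3 and 108 CPM in sham and 57.0, 40.0, 25.5 and 46.5 CPM in Ang II libraries, and the groups overlapped. The difference between times did not pass for Lmod1 (adjusted p = 0.315 in edgeR). The common log2 fold change was -1.28 ± 0.281 (SE, adjusted p = 0.040 in edgeR), kept in 4 of the 16 comparisons that left out 1 library. Smtn and Synpo2, both actin-binding proteins, fell by 1.02 ± 0.208 and 0.91 ± 0.187 (SE, log2), and were called in 9 and 7 of those 16. Acta2, the smooth muscle actin, did not pass (log2 -1.78 ± 0.431 SE, adjusted p = 0.064 in edgeR). Its levels at 4 months were 263, 286, 272 and 1262 CPM in sham and 371, 261, 134 and 251 CPM in Ang II libraries, so that 1 sham library stood far above the rest. At 2 months Acta2 was at 2669, 1919, 1529 and 3932 CPM in sham and at 806, 358, 274 and 313 CPM in Ang II libraries.

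Npnt (mm10 chr3:132881745-132950291), or nephronectin, a matrix ligand of the smooth muscle integrin α8β1, was at 184, 131, 94.8 and 155 CPM in sham and at 23.8, 19.6, 12.3 and 12.9 CPM in Ang II libraries at 2 months. At 4 months it was at 12.9, 18.7, 15.5 and 85.6 CPM in sham and at 27.0, 9.81, 6.00 and 10.4 CPM in Ang II libraries. The 2-month groups were far apart and the 4-month groups overlapped, with sham replicate 4 alone above the others. The common log2 fold change was -2.19 ± 0.475 (SE, 4.57-fold lower, adjusted p = 0.039 in edgeR), kept in 4 of the 16 comparisons that left out 1 library. Optc, a small leucine-rich matrix protein, fell by 1.74 ± 0.314 (SE, log2) and was called in all 16, as was Fibin, a secreted protein, which fell by 1.15 ± 0.201. Pi15, Gal3st3, Fbxl22 and Lgr6 fell by 1.73, 1.69, 1.2 and 1.09 on the log2 scale and were called in 7, 5, 11 and 9 of the 16.

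Most elastic fibre genes lay below 0 without passing. Of 22 listed, 17 had a value below 0 (median log2 fold change -0.43), and 12 were lower and 3 higher at an unadjusted p under 0.05. Among all 17153 genes tested, 7833 lay below 0, and 1348 were lower and 1234 higher at that p. The 1 elastic fibre gene that fell was Ltbp2, a microfibril protein, at -0.45 ± 0.0979 (SE, log2), called in 4 of the 16 comparisons. Elastin (Eln) was at 1114, 793, 525 and 1490 CPM in sham and at 241, 120, 87 and 117 CPM in Ang II libraries at 2 months, and at 63.2, 74.0, 63.7 and 392 CPM in sham and 140, 121, 54.7 and 78.3 CPM in Ang II libraries at 4 months. It separated the groups of 2 months only, and its common log2 value of -1.69 ± 0.521 (SE) did not pass (adjusted p = 0.13 in edgeR). Matricellular genes had 0 of 18 called in edgeR and a median of -0.41, with 9 lower and 3 higher at an unadjusted p under 0.05. Of 16 collagen genes 0 passed in edgeR (3 lower at an unadjusted p under 0.05, median -0.18), with Col1a1 at -0.23 ± 0.203 and Col3a1 at 0.07 ± 0.162 (SE, log2).

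**Figure D3:**
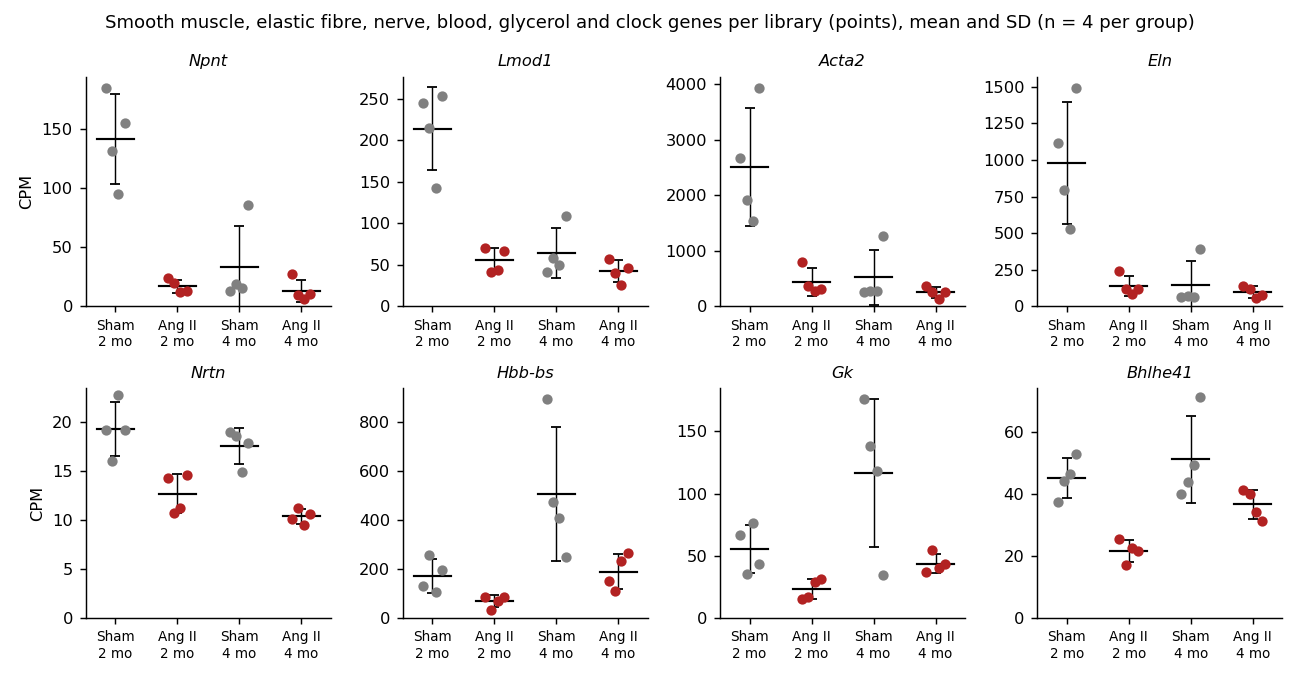
TMM-normalised CPM (linear axis from 0) of 8 genes by group, with points for the 4 libraries, bars for the mean and lines for the SD. Acta2 and Eln did not pass the common test. Npnt, Lmod1, Acta2 and Eln are high in the 4 sham libraries of 2 months and in sham replicate 4 of 4 months, whereas Nrtn is lower in all Ang II libraries at both times, 9.46 to 14.5 CPM against 14.9 to 22.7 CPM.

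Nrtn (mm10 chr17:56751325-56757530) was the fall with the smallest p. It encodes neurturin, a growth factor that keeps sympathetic, parasympathetic and sensory neurons alive. It was at 19.1, 16, 22.7 and 19.2 CPM in sham and at 14.3, 10.7, 11.2 and 14.5 CPM in Ang II libraries at 2 months, and at 18.9, 18.5, 14.9 and 17.8 CPM in sham and 10, 11.2, 9.46 and 10.6 CPM in Ang II libraries at 4 months. Every Ang II library was below every sham library, and the common log2 fold change was -0.68 ± 0.0941 (SE, 1.61-fold lower, adjusted p = 0.0029 in edgeR). It was the 1 of 15 nerve genes that passed. The noradrenaline enzymes Th and Dbh had log2 values of 0.17 and 0.27. Aspg, an asparaginase, separated all 8 Ang II from all 8 sham libraries too and fell by 1.19 ± 0.205 (SE, log2, adjusted p = 0.012 in edgeR).

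Of 12 tested genes of a red cell and platelet list, 6 had a value below 0 and 5 fell in the common comparison: the globins Hbb-bs, Hbb-bt, Hba-a1 and Hba-a2 and Alas2, the haem enzyme of red cell precursors. Among all 17153 genes tested, 7833 had a value below 0. Hbb-bs was at 128, 257, 104 and 194 CPM in sham and at 84.4, 32.1, 68.5 and 85.1 CPM in Ang II libraries at 2 months. The 4-month values were 896, 475, 410 and 250 CPM in sham and 150, 111, 233 and 264 CPM in Ang II libraries. The groups were apart at 2 months and overlapped at 4 months through sham replicate 4. The common log2 fold change was -1.38 ± 0.287 (SE, adjusted p = 0.032 in edgeR), with -1.34 at 2 months and -1.42 at 4 months (adjusted p = 0.145 and 0.153). The other 4 had common values of -1.47 to -1.53. Each globin pair is nearly identical in sequence, so the split of reads within a pair is uncertain. The 5 calls were kept in 4 to 8 of the 16 comparisons that left out 1 library. The platelet genes Pf4 and Gp9 had log2 values of 0.39 and 1.05 and did not pass.

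Gk, glycerol kinase, was at 66.6, 35.1, 76.3 and 42.9 CPM in sham and at 15, 16.8, 28.6 and 31.4 CPM in Ang II libraries at 2 months, and at 176, 138, 118 and 34.2 CPM in sham and 36.5, 54.6, 40.1 and 42.9 CPM in Ang II libraries at 4 months. Sham replicate 4 of 4 months was the only library of Gk to lie with the Ang II libraries of its time. The common log2 fold change was -1.35 ± 0.275 (SE, adjusted p = 0.031 in edgeR), kept in 9 of the 16 comparisons that left out 1 library. Bhlhe41, a repressor of the circadian clock, was at 37.4, 44.1, 46.4 and 53.1 CPM in sham and at 25.5, 16.9, 22.6 and 21.7 CPM in Ang II libraries at 2 months. Its 4-month values were 40.0, 44.1, 49.4 and 71.4 CPM in sham and 41.2, 40.0, 34.3 and 31.4 CPM in Ang II libraries. The groups of 4 months overlapped, and the common log2 fold change was -0.77 ± 0.142 (SE, adjusted p = 0.017 in edgeR). It was the 1 of 18 clock genes that passed (11 lower and 0 higher at an unadjusted p under 0.05), while its paralog Bhlhe40 had -0.87 and Per2 -0.74. Of all 17153 genes tested, 1348 were lower and 1234 higher at that p. The clock list had median log2 fold changes of -0.45 at 2 months and -0.16 at 4 months. Its sum was 1218 to 1301 CPM in sham and 779 to 925 CPM in Ang II libraries at 2 months. At 4 months the sums overlapped, at 1137 to 1327 CPM in sham and 1047 to 1155 CPM in Ang II libraries. The difference between times was not tested for the list.

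**Figure D4:**
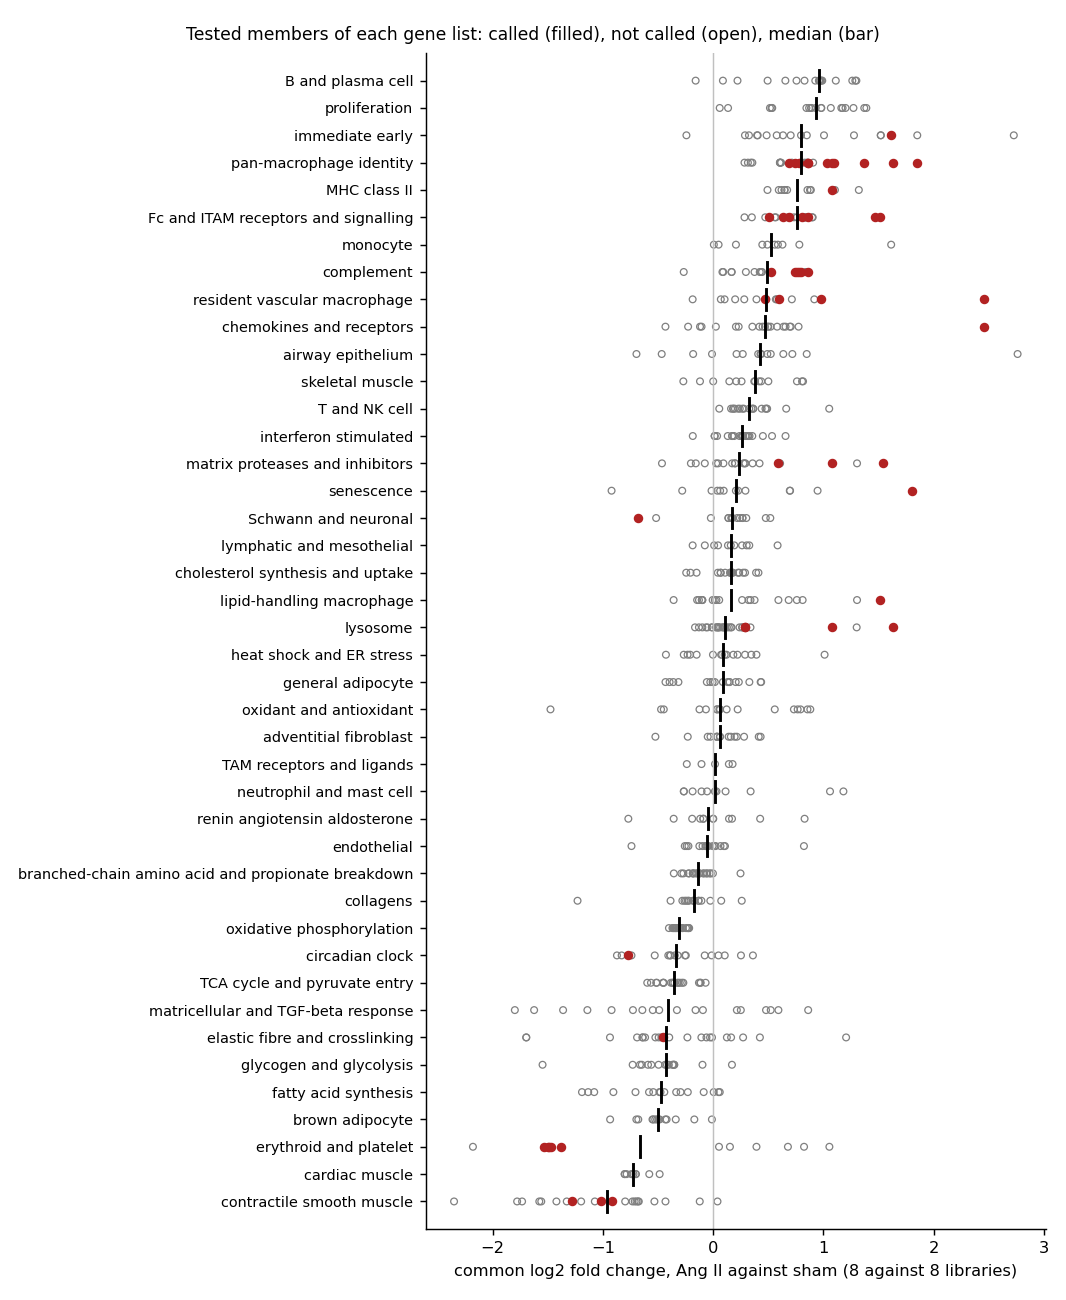
Common log2 fold change (Ang II against sham, 8 libraries each) of every tested member of 42 gene lists, 1 list per row. Filled points were called, open points were not, and the vertical bar is the median. Called points gather in the macrophage, Fc receptor and complement lists on the right and in the red cell and smooth muscle lists on the left. Some lists share members, so a gene can appear in more than 1 row.

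The receptors the series is about did not pass in the common comparison. Axl was at 144, 117, 112 and 209 CPM in sham and at 116, 105, 88.7 and 78.0 CPM in Ang II libraries at 2 months, and at 68.6, 65.0, 55.5 and 124 CPM in sham and 80.5, 96.5, 67.3 and 92.8 CPM in Ang II libraries at 4 months. The groups overlapped at both times (log2 -0.24 ± 0.192 SE, adjusted p = 0.60 in edgeR). Mertk, its relative on macrophages, was at 45.2, 40.8, 31.2 and 33.5 CPM in sham and at 23.4, 24.5, 18.7 and 23.1 CPM in Ang II libraries at 2 months, and at 22.9, 20.8, 18.2 and 33.4 CPM in sham and 40.0, 38.7, 27.4 and 32.7 CPM in Ang II libraries at 4 months. All Ang II libraries of Mertk were below sham at 2 months, and at 4 months 1 sham library lay within the Ang II range. Its log2 values were -0.75 at 2 months and 0.54 at 4 months (adjusted p of the difference 0.20 in edgeR), and the common value was -0.11 ± 0.209 (SE). Tyro3 and the ligands Gas6 and Pros1 had common log2 values of 0.14, 0.02 and 0.18, and the Ang II receptor Agtr1a had 0.14, none of them called.

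Of the 10 genes with the smallest p for the difference between times, none passed, and some had opposite signs. Banp, a nuclear matrix protein, had log2 values of -0.97 at 2 months and 0.33 at 4 months, with groups apart at each time and an adjusted p of the difference of 0.053 in edgeR. Enc1, an actin-binding protein of the Kelch family, had 0.76 and -0.48 (adjusted p = 0.18 in edgeR), and Cd9, a tetraspanin, had -0.70 and 0.41 (adjusted p = 0.20 in edgeR). Ramp1, Tspan2 and Wwp2 fell at 2 months by 1.23, 1.11 and 1.45 on the log2 scale and had values of -0.07, 0.07 and 0.03 at 4 months.

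The interferon-stimulated list had 0 of 20 called in edgeR (10 at an unadjusted p under 0.05) and a median of 0.26, and its sum was 1078 to 1441 CPM in sham and 1480 to 2151 CPM in Ang II libraries at 2 months, and 1193 to 1877 CPM and 1905 to 2396 CPM at 4 months. The groups of that sum did not overlap at either time. Of all 17153 genes tested, 1234 were higher at an unadjusted p under 0.05. B and plasma cell genes had a median log2 fold change of 0.96 with 0 of 18 called (0 at an unadjusted p under 0.05), and their sums of 538 to 3547 CPM overlapped between groups. Proliferation genes had a median of 0.93 with 0 of 19 called (4 at an unadjusted p under 0.05), with Mki67 at 1.37 and Top2a at 1.27. T and NK cell genes had 0 of 19 called. General adipocyte genes, which made up 36718 to 61149 CPM, had 0 of 17 called and a median of 0.09, and cardiac muscle genes had 0 of 10 called and a median of -0.73.

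**Figure D5:**
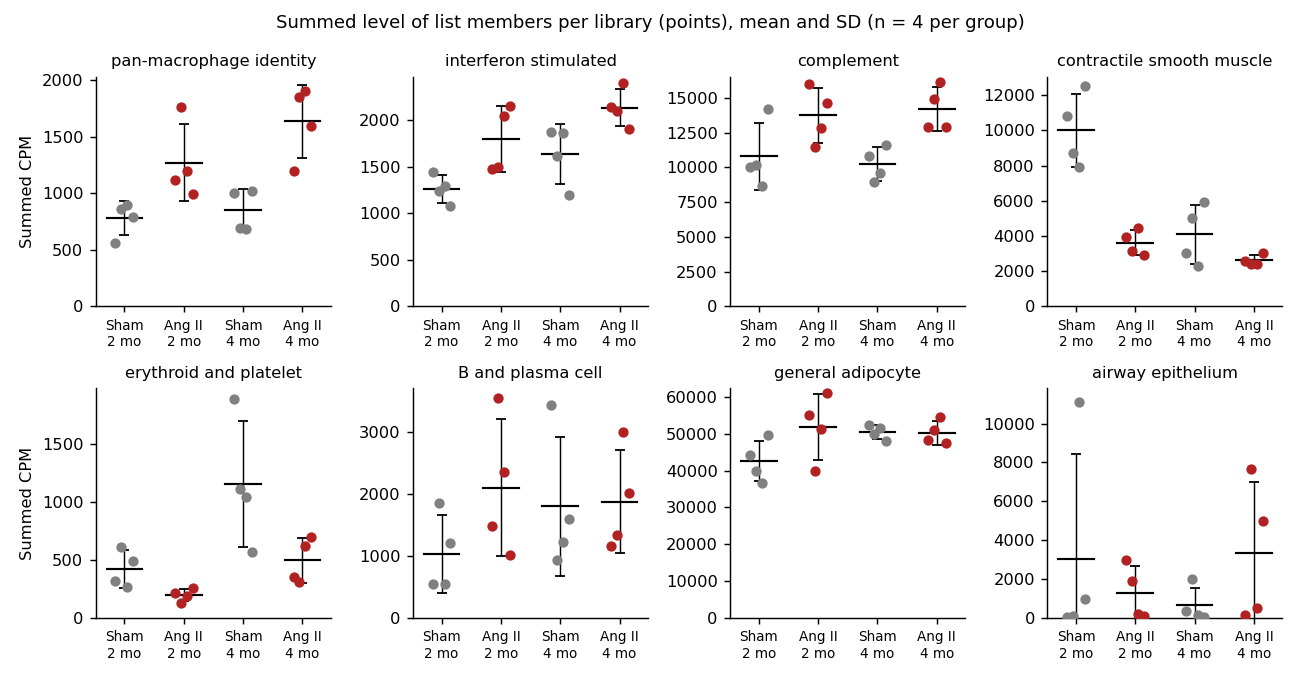
Summed TMM-normalised CPM (linear axis from 0) of 8 gene lists by group, with points for the 4 libraries, bars for the mean and lines for the SD. The macrophage and interferon sums of Ang II libraries lie above those of sham at each time. The smooth muscle sum is highest in the 4 sham libraries of 2 months, followed by 5956 and 5038 CPM in sham replicates 4 and 2 of 4 months, and the airway sum varies from 57.4 to 11134 CPM across libraries of all groups.

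The authors' deposited table listed all 157 genes at both times with the same direction as here, of which 111 at 2 months and 103 at 4 months had an adjusted p under 0.05 there. The authors used DESeq2, which calls more genes than edgeR on these libraries. Run here, it called 722 genes at 2 months and 459 at 4 months, where edgeR called 323 and 11. The share of all genes under that threshold in the authors' table was not computed, so 111 and 103 have no background beside them. For Cd68 the authors' deposited table gives log2 fold changes of 1.5 at 2 months and 1.75 at 4 months, and for Nrtn -0.62 and -0.77. Those tables come from the same libraries and are no further replicate.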

How the data were processed

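Messenger RNA libraries of 16 aortic homogenates were analysed. Per the submitters' processing notes, the authors used FastQC, cutadapt, STAR, featureCounts and DESeq2 with build mm10. For versions, annotation, strand setting and multi-mapped reads, nothing is given in the sources used here. Read counts of 37606 genes were deposited by the authors, with tables that hold a log2 fold change and p-values per time. Symbols came from those tables (19191) or GENCODE (18320), and 95 genes had none.

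Counts were tested in R 4.3.3 with edgeR 4.0.16: filterByExpr over the 4 groups (minimum count 10, minimum total 15), TMM scaling, glmQLFit and glmQLFTest, and Benjamini-Hochberg adjustment over 17153 genes at 0.05. The common effect had time and treatment as terms. Effects within each time and their difference came from 1 mean per group. SE is the absolute log2 fold change divided by the root of F. CPM are TMM-normalised over the 16 libraries. In simulated data 47.8%, 62.7% and 86.4% of changes of 1.5-, 2- and 4-fold were recovered, with 8 false of 139 calls. The simulated data held no effect of time, no change of the Ang II effect with time and no outlying library. These rates may therefore not hold for the measured libraries.

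The comparison, the 42 lists and the alternatives were chosen with earlier results of these data known. Lists are described by counts and medians, with no test of a list. Some lists share members, so their counts are not separate results. Named genes were the 15 largest rises and 15 largest falls among called genes with a mean CPM of at least 1 and no predicted symbol, up to 5 called members per list by p, 11 fixed genes and the 10 smallest p of the difference. List members outside that rule, such as Fcgr3, Pirb, C5ar1, Lst1, Egr3 and Bhlhe40, were chosen after their values were seen. Alternatives were DESeq2 1.42.0, its size factors, limma 3.58.1 voom, other filters, an adipocyte covariate, replicate blocks, omitted libraries and each time alone. No pair of libraries within a group agreed within counting noise (chi-square per degree of freedom 24.0 to 169).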

Additional observations from a re-analysis of the deposited data

Results flagged for a closer look

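In groups of 4 libraries, 12 of 120 groups held 1 library far from the other 3, where chance alone gives about 1 in 20. Of the genes that rose, Trem2 was at 9.52 CPM in Ang II replicate 1 and Mpeg1 at 85.2 CPM in Ang II replicate 2 of 2 months, both above the rest of their group, and Mmp14 was at 32.9 CPM in sham replicate 4 of 4 months.

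Sham replicate 4 of 4 months also stood above the other 3 sham libraries for smooth muscle and matrix genes, with Npnt at 85.6 CPM, Acta2 at 1262 CPM and Eln at 392 CPM. Acta2 was at 806 CPM in Ang II replicate 1 of 2 months, the highest of its group.

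Among summed lists, airway epithelium genes reached 11134 CPM in sham replicate 3 of 2 months and 1977 CPM in sham replicate 2 of 4 months. T and NK cell genes were at 248 CPM in sham replicate 2 of 2 months, above its group, and at 64.0 CPM in sham replicate 2 of 4 months, below its group. Clock genes were at 1047 CPM in Ang II replicate 3 of 4 months, the lowest of its group.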

How the results depend on the processing

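The number of genes changed in common depended on the tool. Against 157 (87 higher, 70 lower), DESeq2 gave 697 (291 and 406), limma's voom with quality weights 427 (203 and 224), the adipocyte covariate 617 (225 and 392), and the average of the within-time effects 342 (143 and 199). A minimum log2 change of 1 left 54, and the libraries of 2 months rich in airway RNA left out gave 35 (30 and 5). All 157 had the same direction in every alternative run, which their choice on the same libraries favours. Leaving out each library gave 69 to 232 genes, 51 to 112 higher and 16 to 152 lower, and of 51 named called genes 27 were called each time. Macrophage identity members called were 11, and 18 with DESeq2, 17 with the covariate, 10 to 12 without 1 library. Contractile members called were 3, and 14 with DESeq2, 6 with voom, 5 with the covariate, 11 with the average, 0 without the airway-rich libraries of 2 months, and 0 to 8 without 1 library. Calls at 2 months were 323, and 722 with DESeq2, 775 with voom, 0 without the airway-rich libraries of 2 months, and 107 to 434 without 1 library. Calls at 4 months were 11, and 459 with DESeq2, 840 with voom, 17 with the covariate, 226 without the airway-rich libraries of 2 months, 114 with the 8 libraries of that time alone, and 5 to 184 without 1 library. For the difference DESeq2 gave 179, voom 467, DESeq2 size factors 1, a mean count of at least 5 also 1, and leaving out 1 library 0 to 128. Leaving out all 8 airway-rich libraries, an alternative chosen after seeing the data, gave 0 for every one of these counts with fewer samples. Correlation showed no clear pairing of same-numbered libraries (r of deviations -0.315 to 0.470, best with their own number in 2 of 8). The 2 were replicate 2 of each time, at r of 0.470 and 0.366, and such a check cannot exclude a pairing. With the replicate number as a block, 41 genes were called (36 and 5), 0 of the contractile list, 173 at 2 months and 0 at 4 months. Signs turned only near 0: Mertk had 0.027 without the airway-rich libraries of 2 months, Gas6 -0.0600 without all airway-rich libraries and -0.054 to 0.128 without 1 library, and Col3a1 -0.022 to 0.186 without 1 library. The cause of these shifts was not tested. Depth limits genes of a few CPM, such as Gdf15.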

Other observations

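Genes of energy metabolism leaned low without a call. Of 20 genes of the TCA cycle and pyruvate entry, 20 had a common log2 value under 0 and 0 passed in edgeR (15 at an unadjusted p under 0.05), with medians of -0.16 at 2 months and -0.56 at 4 months. Over all 17153 genes tested, 7833 lay under 0 and 1348 were lower at that p. The mitochondrial pyruvate carrier gene Mpc1 had -0.60, the pyruvate dehydrogenase gene Pdhb -0.56 and citrate synthase (Cs) -0.37. Oxidative phosphorylation genes had 0 of 19 called (14 at an unadjusted p under 0.05) and a median of -0.31 (-0.11 at 2 months and -0.49 at 4 months). Glycogen and glycolysis genes had 0 of 16 called (11 at an unadjusted p under 0.05) and a median of -0.43 (-0.30 at 2 months and -0.62 at 4 months). Brown adipocyte genes had 0 of 14 called and a median of -0.50 (-0.37 at 2 months and -0.64 at 4 months). The difference between times was not tested for these lists.

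Among further genes called in common, chosen here after their values were seen, Cd33, an inhibitory receptor of myeloid cells, had a log2 value of 1.35, Ptafr, the receptor for platelet-activating factor, 1.02, P2rx7, an ATP-gated channel, 0.64, and Heph, a copper oxidase that helps iron leave cells, 0.47. Among those lower in Ang II, Cspg4, a pericyte proteoglycan, had -0.78, Heyl, a target of Notch, -0.68, Smad6, a brake on BMP signals, -0.53 and Fzd7, a Wnt receptor, -0.69. Prelp, a matrix protein rich in leucine repeats, had -0.40 at 2 months and -0.65 at 4 months.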
